A study of Mus musculus with 24 samples.

Results

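The interleukin-4 receptor alpha chain gene Il4ra was deleted in intestinal epithelial cells, and the CD45- cells of the ileum were compared between mice with and without the deletion, all with wild-type Hoil1. The libraries were chosen by their labels: CD45 negative cells, genotype Hoil1+/+Il4raflox/flox (Il4ra f/f, replicates 6, 7 and 8) and genotype Hoil1+/+Il4raflox/flox+Vil1cre (Il4ra ΔIEC, replicates 9, 10 and 11). They are 6 of the 24 samples of the series. A last comparison also used 5 CD45- libraries of Hoil1-/- C57BL/6 mice with the same floxed alleles. Of these, 2 were without the Cre transgene (Hoil1-/-Il4raflox/flox, replicates 1 and 2, 9.4 weeks) and 3 with it (Hoil1-/-Il4raflox/flox+Vil1cre, replicates 3, 4 and 5, 9.1 to 9.6 weeks). The same 5 libraries were part of the main fit, so they also entered its filter, scaling and estimate of the spread. The 6 Hoil1+/+ libraries came from C57BL/6 mice, aged 9.0 to 10.3 weeks in the f/f group and 9.0 to 9.7 weeks in the ΔIEC group, and all carried the floxed Il4ra alleles. The Vil1cre transgene, driven by the villin promoter, removes the floxed segment in epithelial cells of the gut, so that other CD45- cells keep the gene. Ileum without Peyer's patches was dissociated, 50% of the epithelial fraction was returned to the lamina propria cells, and live single cells without CD45, the surface protein of blood-derived cells, were sorted. The sorted cells were therefore a mixture of epithelial, vascular and stromal cells. The labels do not say that the libraries came from separate mice, and p-values measure the spread between the 11 libraries of the fit.

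Interleukin-4 and interleukin-13 are the cytokines of type 2 immunity, made in the gut by group 2 innate lymphoid cells and T helper cells. Both signal through receptors that contain the Il4ra chain, by way of JAK kinases and the transcription factor STAT6. In the small intestine this signal is known to expand tuft cells, which sense luminal signals, and goblet cells, which make mucus, and tuft cells in turn send IL-25 back to the lymphoid cells. The comparison asks what loss of the receptor in the epithelium does when Hoil1, a component of a ubiquitin ligase complex that limits inflammation, is intact.

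The 6 libraries held between 6973857 (library 6) and 68345191 (library 11) counts. Libraries 9 and 10 stood apart from the other 4 and from each other. The root mean square difference between library 11 and f/f library 7 was 0.824 on the log2 scale, the smallest of the 15 pairs, and among libraries 6, 7, 8 and 11 the difference was at most 1.42. Libraries 9 and 10 differed from library 11 by 1.75 and 1.81, from each other by 1.70 and from the nearest library, 6, by 1.62 and 1.65. Xist, the RNA of the inactive X chromosome, was counted at 163 and 260.4 CPM (counts per 1000000 of the scaled library) in libraries 9 and 10 and at 0 in the other 4. Ddx3y, a Y-linked gene, was at 0 in libraries 9 and 10 and at 23.4 to 44.2 CPM in the other 4. The pattern of sex-linked genes therefore moved with genotype, and its part in the results cannot be told apart from that of the deletion except through library 11. Mitochondrial genes took 20.1% and 15.4% of counts in libraries 9 and 10, against 7.18% in library 11 and 6.98% to 12.3% in the f/f libraries. The summed CPM of 12 pan-epithelial genes was 2.00, 0.156 and 0.436 times that of 17 blood endothelial genes in libraries 6, 7 and 8, and 2.68, 2.50 and 0.272 times in libraries 9, 10 and 11. Both cell mixtures, epithelium-rich and endothelium-rich, thus occurred in each group. In bulk samples such as these, fewer cells of a type and less RNA per cell cannot be told apart.

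**Figure D1:**
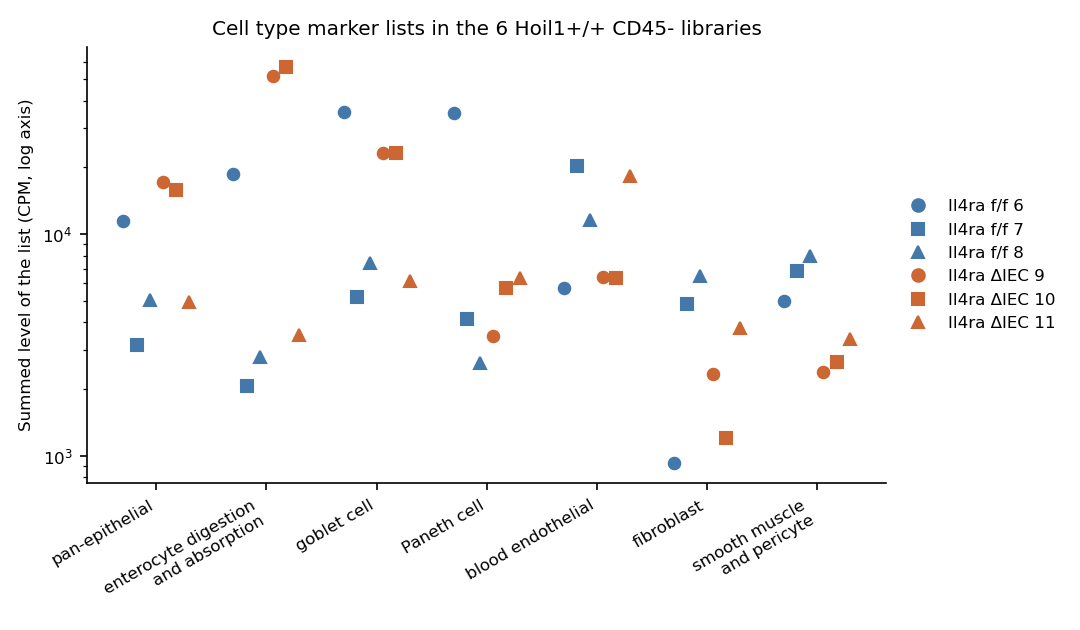
Summed CPM (log axis) of 7 cell type marker lists in each library, with f/f libraries in blue and ΔIEC libraries in orange. Libraries 6, 9 and 10 are high for pan-epithelial, enterocyte and goblet cell genes and low for blood endothelial genes, while smooth muscle and pericyte genes sum to 5021 CPM or more in every f/f library and to 3380 CPM or less in every ΔIEC library.

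With edgeR's quasi-likelihood test, 0 of 16453 genes passed an adjusted p of 0.05 for ΔIEC against f/f (0% called), and the smallest adjusted p was 0.875. At an unadjusted p under 0.05 there were 724 genes (4.4%), of which 389 were higher (2.36%) and 335 lower (2.04%) in ΔIEC. The likelihood ratio test of edgeR called 2 genes, Inhba among them and both lower in ΔIEC, with 1121 at an unadjusted p under 0.05. DESeq2 called 17 genes (7 higher, 10 lower), with 1025 at an unadjusted p under 0.05. Those 17 included Xist and 6 immunoglobulin variable genes beside Mt1, Npl, Malat1, Inhba, Hebp1, Dok3, Higd1b, Grip2 and Asic1. For 547 genes (3.32%) all ΔIEC libraries lay above all f/f libraries, and for 883 genes (5.37%) they lay below, together 8.69% of genes. With 3 libraries against 3, full separation in either direction has a permutation p of 0.1, and 8.69% is under that share. The 4.4% at an unadjusted p under 0.05 is likewise under 0.05 of genes. Neither total is an excess over exchangeable libraries, and genes named below for non-overlap were picked from such totals. The median log2 fold change over all genes tested was -0.05. A p under 0.05 below is the quasi-likelihood test's value before adjustment, and no gene named with one passed after it.

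Il4ra itself did not separate the groups. Its transcript (chr7:125552120-125579474, GRCm38, plus strand) stood at 63.6, 174 and 89.7 CPM in f/f libraries 6, 7 and 8 and at 51.3, 61.02 and 135 CPM in ΔIEC libraries 9, 10 and 11. The groups overlap, and within each the higher level went with the endothelium-rich libraries (7 in the f/f group and 11 in the ΔIEC group). The log2 fold change was -0.40 ± 0.46 (SE; adjusted p = 0.986). Counts were summed over the whole gene and over all sorted cells, which leaves the loss of the floxed segment in the epithelium unchecked. Rbck1, the gene of HOIL1, stood at 84.05 to 122 CPM in the 6 libraries, with overlapping groups (log2 fold change -0.09 ± 0.36).

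The other genes of the receptor pathway did not separate the groups either. Of 16 genes of IL-4 and IL-13 receptor signaling, 15 had counts in these libraries, 5 were higher and 10 lower, and 0 had a p under 0.05 by edgeR's quasi-likelihood test (median log2 fold change -0.12, against -0.05 over all genes). Stat6, the transcription factor of the pathway, had the narrowest range, at 114, 129 and 127 CPM in f/f and 142, 120.0 and 131 CPM in ΔIEC libraries. Il13ra1, the partner chain of Il4ra in the receptor for both cytokines, stood at 55.4, 35.5 and 42.2 CPM and 71.5, 49.1 and 39.1 CPM. Jak1, the kinase bound to Il4ra, stood at 111, 228 and 134 CPM and 117, 79.4 and 206 CPM. Socs3, a feedback inhibitor of cytokine receptors, had the lowest log2 fold change of the list, -0.96 ± 0.64, with libraries 9 and 10 low and library 11 between the f/f values. Il13ra2, the decoy receptor of IL-13, had 0 counts in all 6 libraries, where 3 counts correspond to 0.0398 CPM in the deepest library and 0.44 CPM in the shallowest of the ΔIEC group.

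Genes of contractile cells were low in all 3 ΔIEC libraries, library 11 included, and of the 28 gene lists theirs had the most members below the f/f range. Of 15 smooth muscle and pericyte genes, 13 were lower and 2 higher, 8 had a p under 0.05 in the lower direction (background 2.04%) and 1 in the higher, and for 11 of 15 all 3 ΔIEC libraries lay below all 3 f/f libraries (background 5.37%). Their median log2 fold change was -1.04. None passed adjustment over all genes (adjusted p = 0.875 for the 8).

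Acta2, the smooth muscle actin (chr19:34241090-34255590, minus strand), stood at 1429.7, 1857 and 2574 CPM in libraries 6, 7 and 8 and at 587, 671 and 822 CPM in libraries 9, 10 and 11. Every ΔIEC value is under every f/f value, and the nearest pair is library 11 against the epithelium-rich f/f library 6. The log2 fold change was -1.49 ± 0.53 (adjusted p = 0.875, edgeR's quasi-likelihood test). Myh11, the myosin heavy chain of smooth muscle, stood at 1039, 1213 and 1348 CPM in f/f and 287, 399 and 623 CPM in ΔIEC libraries. Tagln, an actin-binding protein of contractile cells, stood at 719, 937 and 1122 CPM and 272, 319 and 408 CPM. Myl9, the regulatory light chain of smooth muscle myosin, stood at 573, 694 and 872 CPM and 211, 235 and 346 CPM. In all of these the groups were apart, library 9 was lowest and library 11 was highest of the ΔIEC group.

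Lmod1, which nucleates actin filaments in muscle, stood at 97.5, 143 and 132 CPM in f/f and 15.3, 47.5 and 63.7 CPM in ΔIEC libraries. Its log2 fold change of -1.55 ± 0.57 was the lowest of the list. Des, the intermediate filament of muscle, stood at 335, 434 and 415 CPM and 132, 173 and 228 CPM. Actg2, the actin of visceral smooth muscle, was at 50.4, 36.00 and 67.03 CPM and 32.02, 14.7 and 12.4 CPM, with library 11 the lowest. Cspg4, the NG2 proteoglycan of pericytes and other mural cells, was at 47.4, 92.9 and 129.6 CPM and 42.4, 47.1 and 41.9 CPM, with the nearest values in libraries 6 and 10. Cnn1, Notch3 and Synpo2 were also below the f/f range in all 3 ΔIEC libraries, with none at a p under 0.05.

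Other pericyte genes of the list did not share this pattern. Rgs5, a regulator of G proteins in pericytes, stood at 217, 527 and 397 CPM in f/f and 373, 304 and 343 CPM in ΔIEC libraries, and Pdgfrb, the receptor by which vessels recruit pericytes, had a log2 fold change of -0.30 ± 0.51. Abcc9 and Kcnj8, which form a potassium channel of pericytes, were higher in libraries 9 and 10. Abcc9 stood at 0.710, 5.08 and 5.90 CPM in f/f and 35.7, 25.5 and 2.96 CPM in ΔIEC libraries, so library 11 lay within the f/f range (log2 fold change 2.43 ± 1.08). Fibroblast genes, of which all 12 were lower with a median log2 fold change of -0.78, had overlapping groups throughout and 0 at a p under 0.05 by the same test (adjusted calls 0). Col1a1, a collagen chain of fibroblasts, stood at 145, 948 and 1348 CPM in f/f and 523, 226 and 703 CPM in ΔIEC libraries, the f/f value of library 6 being the lowest of the 6.

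In library 11 alone, 11 of 15 smooth muscle and pericyte genes lay below the f/f range and 0 above it, beside 15.3% and 20.0% of all genes tested. These 11 are the genes counted above with all 3 ΔIEC libraries below, so this restates that count and is not separate support. Fitted without libraries 9 and 10, an alternative chosen after seeing the data, the median of the list was -0.96 and Acta2 had a log2 fold change of -1.25 with a single ΔIEC library, which is assumed to vary like the other groups. The sign of that median was largely fixed by the same count. Over 18 alternatives the median of the list ran from -1.42 to -0.91.

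**Figure D2:**
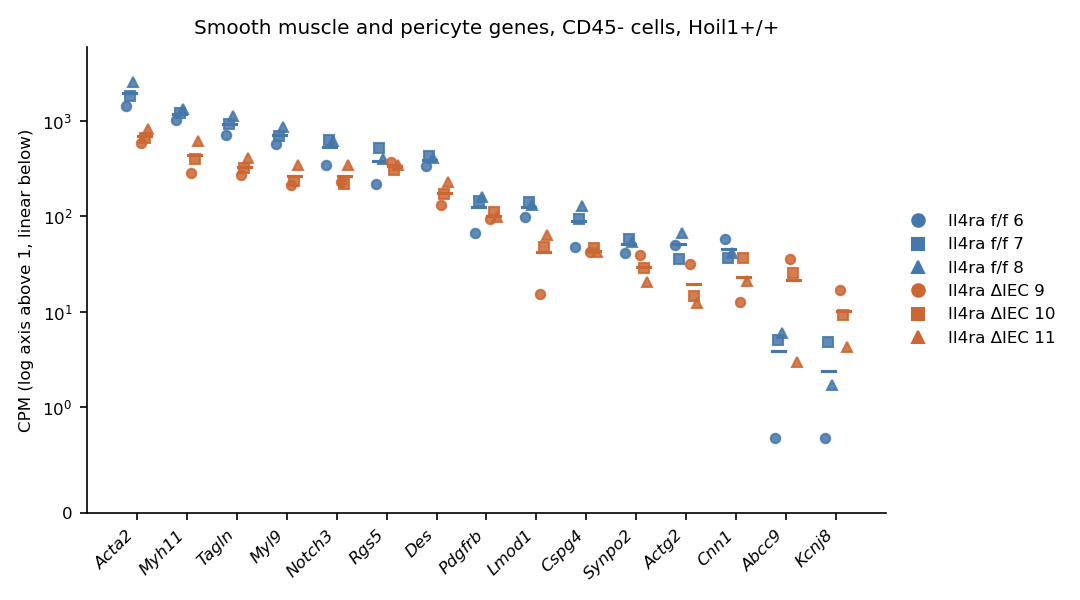
CPM (log axis above 1, linear below) of the 15 smooth muscle and pericyte genes in each library, with f/f libraries in blue, ΔIEC libraries in orange and bars at the group means. From Acta2 to Myl9 the orange points lie under the blue ones, while Abcc9 and Kcnj8 are higher in libraries 9 and 10.

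Contractile genes are known targets of serum response factor, which binds the CArG box (CC, then 6 bases that are A or T, then GG). Among the 15 genes, 11 have a window of 250 bases before the start in the RefSeq promoters (GRCm38.p6), and 1 of these, Myl9, holds an exact match on either strand, beside 1.47% of the 32851 windows. With at most 1 C or G among the 6 inner bases, Acta2 and Myl9 match, beside 8.59% of windows, and Myl9 matches 2 times, as 0.67% of windows do at least. The window of Myl9 is shown because it is the member with the exact match. Its printed bases (chr2:156775214-156775419, plus strand) end where GENCODE places the first exon, and capitals mark both matches, 161 and 99 bases before the RefSeq start, the first of them exact.
Myl9: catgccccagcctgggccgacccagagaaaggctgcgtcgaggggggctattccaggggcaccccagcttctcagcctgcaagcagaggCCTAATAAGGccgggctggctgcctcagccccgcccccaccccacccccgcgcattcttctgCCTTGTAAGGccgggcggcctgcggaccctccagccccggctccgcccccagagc
A match is a description of letters and not a binding site, and no match in a window says only that these letters are not in that stretch.

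Several further genes lay below the f/f range in all 3 ΔIEC libraries at levels above 1 CPM. Grip2, a scaffold protein with PDZ domains, stood at 44.6, 47.2 and 54.2 CPM in f/f and 6.60, 18.9 and 14.02 CPM in ΔIEC libraries. The groups are well apart, with a log2 fold change of -1.89 ± 0.43 (adjusted p = 0.875, edgeR's quasi-likelihood test). Pln, phospholamban, the inhibitor of the calcium pump of the sarcoplasmic reticulum, stood at 63.9, 62.9 and 83.8 CPM and 18.6, 24.2 and 32.3 CPM. Wfs1, a membrane protein of the endoplasmic reticulum, stood at 62.2, 61.1 and 62.02 CPM and 31.2, 21.1 and 31.6 CPM. Its values were close to each other within the f/f group and all lower in the ΔIEC group, with a log2 fold change of -1.14 ± 0.27. Nkd1, a feedback inhibitor of Wnt signaling, stood at 44.01, 53.1 and 84.2 CPM and 15.8, 8.80 and 19.2 CPM, and had a log2 fold change of -2.04 ± 0.49. It was the one member with a p under 0.05 among 12 stem cell and Wnt target genes (background 2.04% lower). Of these, 2 were higher and 10 lower with a median of -0.11. Axin2, another feedback inhibitor induced by Wnt, was at 83.5, 57.4 and 58.9 CPM and 49.7, 118 and 89.7 CPM, with overlapping groups, and Olfm4, a marker of crypt stem cells, at 1013, 1236 and 1606 CPM and 903, 935 and 1601 CPM.

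Lbh, a transcription cofactor, stood at 218, 239 and 298 CPM in f/f and 99.7, 80.7 and 141 CPM in ΔIEC libraries. Inf2, a formin that severs and builds actin filaments, stood at 74.7, 119 and 116 CPM and 25.2, 26.3 and 54.7 CPM. Hebp1, a heme-binding protein, stood at 11.4, 14.8 and 18.5 CPM and 1.90, 3.52 and 5.10 CPM. C1qtnf7, a secreted protein of the C1q and TNF related family, stood at 5.54, 13.2 and 12.1 CPM and 1.90, 2.93 and 2.44 CPM. In each of them all ΔIEC values were under the lowest f/f value, and log2 fold changes lay between -2.09 and -1.23.

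A few genes had counts in all f/f libraries and 0 in all ΔIEC libraries. Inhba, which encodes the subunit of activin A, stood at 1.28, 2.67 and 5.76 CPM in f/f libraries 6, 7 and 8. With counts and depths summed over the libraries of each group, so that deeper f/f libraries weigh more, and a floor of 3 counts for the ΔIEC sum, this is at least 123-fold lower in ΔIEC. Dok3, an adaptor protein of immune receptors, stood at 1.42, 3.17 and 2.49 CPM in f/f libraries (at least 78.8-fold lower) and Higd1b at 2.13, 1.41 and 1.49 CPM (at least 46.9-fold lower). These bounds rest largely on the depth of library 11, which holds most of the ΔIEC counts. With edgeR's quasi-likelihood test the adjusted p of each was 0.875.

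Enterocyte genes were the group with the highest median log2 fold change, and most of the difference lay in libraries 9 and 10. All 30 genes of enterocyte digestion and absorption had a fitted fold change above 0, with a median of 1.91, and 8 had a p under 0.05 (background 2.36%). Only 3 of 30, Slc10a2, Dpp4 and Cubn, had all ΔIEC libraries above all f/f libraries (background 3.32%). Without libraries 9 and 10, chosen after seeing the data, the median was -0.65, and in library 11 alone 3 of 30 lay above and 9 below the f/f range, beside 20.0% and 15.3% of all genes. The 3 above are again Slc10a2, Dpp4 and Cubn.

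The bile acid genes of the ileum show how the pattern varied within the list. Slc10a2, the apical sodium-dependent transporter that takes up bile acids in the ileum (chr8:5083219-5105351, minus strand), stood at 5.96, 0 and 4.37 CPM in libraries 6, 7 and 8 and at 49.8, 61.5 and 37.4 CPM in libraries 9, 10 and 11. The f/f group reached at most 5.96 CPM and library 11 was close to libraries 9 and 10. The log2 fold change was 3.88 ± 1.06, or 14.7-fold (adjusted p = 0.875, edgeR's quasi-likelihood test), and 3.47 without libraries 9 and 10. Slc51a, one chain of the transporter that passes bile acids to the blood, stood at 139, 12.3 and 20.7 CPM and 269, 454 and 83.1 CPM, and Slc51b, the other chain, at 60.5, 2.87 and 13.2 CPM and 148, 185 and 21.2 CPM. Fabp6, the bile acid binding protein of the ileal cytosol, stood at 1732, 3.02 and 71.9 CPM and 2785, 8554 and 697 CPM. Fgf15, the hormone by which the ileum restrains bile acid synthesis, stood at 19.9, 0.302 and 0 CPM and 38.1, 120.0 and 3.89 CPM. For these 4 the f/f library 6 lay with the ΔIEC libraries and above library 11, so the groups overlapped.

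Cubn, the receptor for vitamin B12 bound to intrinsic factor, stood at 87.03, 5.33 and 13.2 CPM in f/f and 185, 441 and 102 CPM in ΔIEC libraries, with library 11 just above library 6. Its partner Amn did not separate the groups, at 180.0, 17.6 and 25.4 CPM and 333, 379 and 30.1 CPM. Dpp4, a brush border peptidase, stood at 12.5, 12.2 and 12.8 CPM and 33.6, 87.1 and 13.7 CPM, and here the margin between library 11 and the f/f group was under 1 CPM. Anpep, aminopeptidase N of the brush border, stood at 1483, 350.3 and 366 CPM and 4698, 5088 and 732 CPM. Without libraries 9 and 10 its log2 fold change went from 2.26 to 0.0010. Slc5a1, the sodium-glucose cotransporter, stood at 170.1, 108 and 91.1 CPM and 650.4, 525 and 127 CPM. Apoa1, the apolipoprotein with the highest level of the list, stood at 9228, 477 and 899.7 CPM and 23105, 26802 and 450.3 CPM, so that library 11 was the lowest of the 6 and libraries 9 and 10 the highest.

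Epithelial content moved with this group of genes. Per 100 CPM of pan-epithelial genes, the enterocyte list summed to 163, 65.3 and 55.4 CPM in libraries 6, 7 and 8 and to 299.5, 359 and 70.9 CPM in libraries 9, 10 and 11. The 12 pan-epithelial genes all had a fitted fold change above 0, with a median of 0.72, overlapping groups and 0 at a p under 0.05 by edgeR's quasi-likelihood test. With the summed pan-epithelial level as a covariate, the median of the enterocyte list was 0.34 and that of smooth muscle and pericyte genes -0.91, while Slc10a2 had a log2 fold change of 3.74. Epcam, the adhesion molecule of epithelial cells, stood at 780.0, 263 and 427 CPM and 1377, 1057 and 504 CPM.

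**Figure D3:**
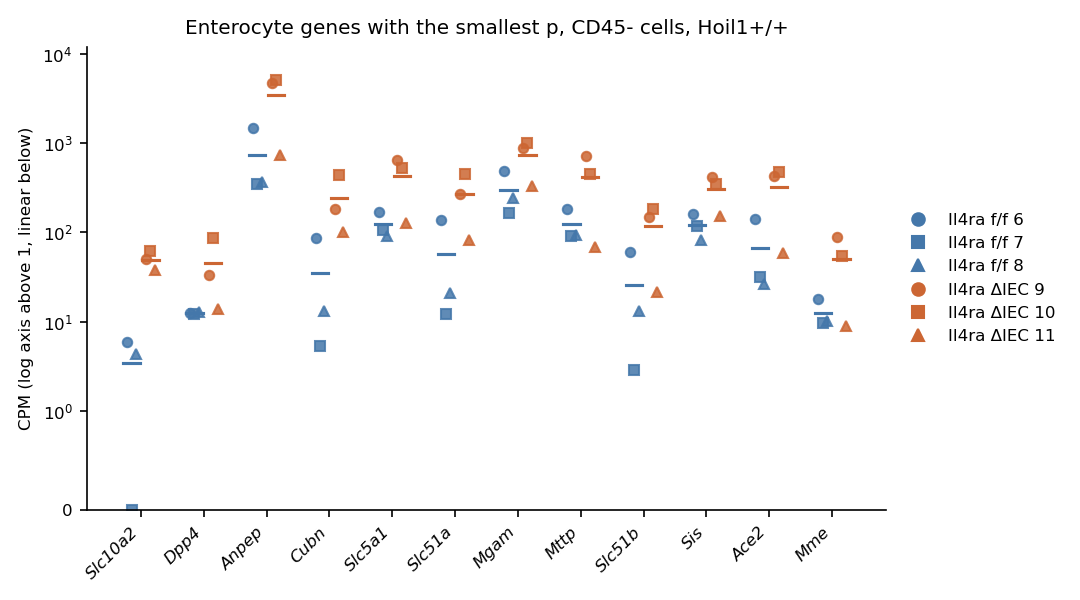
CPM (log axis above 1, linear below) of the 12 enterocyte genes with the smallest p, in each library, with bars at the group means. Slc10a2 is the gene for which library 11 (orange triangle) lies far above all f/f libraries, while for most others libraries 9 and 10 are high and library 11 lies near the f/f points.

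Other genes above the f/f range in all 3 ΔIEC libraries were led by a metallothionein. Mt1, which binds zinc and copper (chr8:94179082-94180327, plus strand), stood at 70.3, 51.6 and 49.4 CPM in libraries 6, 7 and 8 and at 379, 666 and 131 CPM in libraries 9, 10 and 11. Library 11 was the lowest of its group and still above the highest f/f value. The log2 fold change was 2.78 ± 0.62 (adjusted p = 0.875, edgeR's quasi-likelihood test), and 1.20 without libraries 9 and 10. Mt2, its neighbour and paralog, named after its values were seen, did not follow, at 10.7, 8.80 and 11.9 CPM in f/f and 1.34, 18.8 and 12.1 CPM in ΔIEC libraries (log2 fold change -0.03 ± 0.76).

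Metallothionein promoters carry metal response elements, with the core TGCACNC or TGCGCNC on either strand. The windows of Mt1 and Mt2 are printed because the neighbours differ in the counts. Of 32851 RefSeq windows of 250 bases, 21.4% hold at least 1 core and 1.26% hold 3 or more. The window of Mt1 holds 1 and that of Mt2 holds 3, shown in capitals. These numbers cover only the printed bases, 243 for Mt1 and 250 for Mt2. Cores elsewhere near either gene were not looked for, so 1 and 3 do not compare the whole promoters. A link between the cores and the levels was not tested. The bases are chr8:94178839-94179081 for Mt1, ending at its first GENCODE exon, and chr8:94172368-94172617 for Mt2 (GRCm38.p6, plus strand).
Mt1: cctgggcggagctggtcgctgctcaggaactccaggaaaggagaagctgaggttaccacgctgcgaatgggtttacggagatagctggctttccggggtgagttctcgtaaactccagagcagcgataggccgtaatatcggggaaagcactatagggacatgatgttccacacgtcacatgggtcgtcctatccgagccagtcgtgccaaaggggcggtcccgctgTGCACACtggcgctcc
Mt2: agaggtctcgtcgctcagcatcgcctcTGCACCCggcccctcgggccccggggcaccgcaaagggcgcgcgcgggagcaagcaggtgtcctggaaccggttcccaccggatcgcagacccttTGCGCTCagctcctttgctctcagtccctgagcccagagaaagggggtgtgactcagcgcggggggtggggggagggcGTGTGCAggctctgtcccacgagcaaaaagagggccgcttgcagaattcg
The last capitals of Mt2 are the core read on the opposite strand.

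Slc13a1, the sodium-sulfate cotransporter, stood at 17.7, 1.26 and 4.62 CPM in f/f and 49.3, 76.9 and 32.4 CPM in ΔIEC libraries (log2 fold change 2.78 ± 0.74). Npl, an enzyme that splits sialic acid, stood at 0.852, 0.654 and 0.142 CPM and 13.7, 6.60 and 2.27 CPM (log2 fold change 3.81 ± 0.97). Slc1a1, a glutamate transporter, stood at 20.3, 11.6 and 17.9 CPM and 70.1, 84.6 and 28.2 CPM. In these, libraries 9 and 10 were far above the f/f group and library 11 was nearer to it. Malat1, a nuclear long noncoding RNA, stood at 518, 544 and 299.6 CPM and 2562, 2156 and 629 CPM, and its log2 fold change of 1.97 ± 0.50 was 0.47 without libraries 9 and 10. Egln3, a prolyl hydroxylase that responds to low oxygen, stood at 6.81, 8.90 and 5.23 CPM and 20.8, 18.2 and 10.96 CPM, and Slc16a3, a lactate transporter, at 12.5, 14.4 and 11.1 CPM and 40.2, 36.2 and 16.02 CPM. Gda, guanine deaminase, Bfar, a regulator of cell death, and Slc25a20, the mitochondrial carnitine carrier, had log2 fold changes of 1.18, 1.03 and 1.06, each with library 11 the lowest of the ΔIEC group. Every gene in this paragraph kept its sign without libraries 9 and 10. That was largely fixed by the choice of genes, since library 11 had to lie above the f/f range for each.

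**Figure D4:**
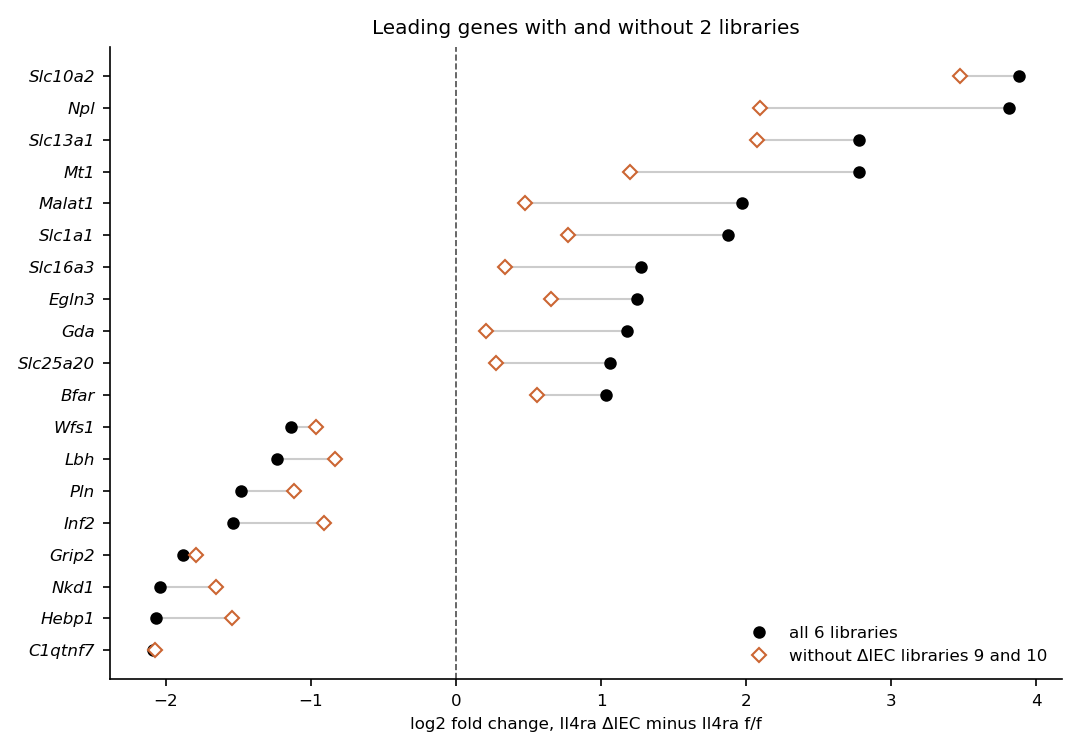
Log2 fold change (ΔIEC minus f/f) of the leading genes whose groups did not overlap, from the fit with all 6 libraries (black) and from the fit without ΔIEC libraries 9 and 10 (open diamonds). Every sign is kept, Slc10a2 stays above 3, and the genes on the left move less than Malat1 and Mt1. The kept signs are not a separate test, because they were largely fixed by the choice of genes. For each gene shown, the remaining ΔIEC library had to lie outside the f/f range.

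Genes induced in the epithelium by IL-4 and IL-13 showed wide spreads and no separation of the groups. Of 15 such genes 12 passed the filter and 10 had counts in these 6 libraries, of which 8 were higher and 2 lower in ΔIEC, with a median log2 fold change of 0.94. Clca1, a secreted protein of goblet cells, stood at 2479, 297 and 353 CPM in f/f and 1966, 1602 and 468 CPM in ΔIEC libraries. Ang4, an antimicrobial ribonuclease of Paneth and goblet cells, stood at 741, 119 and 61.8 CPM and 65.04, 91.97 and 119 CPM. Gsdmc2, of the gasdermin C family, stood at 20.02, 4.07 and 10.2 CPM and 33.8, 20.7 and 0 CPM. In Clca1 and Ang4 library 6 was the highest of all 6, and no member had groups that do not overlap. Sprr2a1, a small proline-rich protein, was at 0 in the f/f libraries and at 0.112, 2.64 and 0 CPM in ΔIEC libraries. It was the one member of 10 with a p under 0.05 (background 2.36% higher). Only library 10 held it above the floor, since 3 counts correspond to 0.336 CPM in library 9. Retnlb, resistin-like beta of goblet cells, had 0 counts in all 6 libraries. Without libraries 9 and 10 the median of the list was -1.17, and with the summed pan-epithelial level as a covariate it was -0.74.

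Tuft cell genes did not separate the groups. Of 20 measured, 9 were higher and 11 lower, the groups overlapped for all of them, and the median was -0.21. With a p under 0.05 were Ptgs1 and Chat, both lower (2 of 20, background 2.04%). Dclk1, the kinase that marks tuft cells, stood at 14.9, 10.4 and 26.1 CPM in f/f and 5.04, 13.3 and 10.4 CPM in ΔIEC libraries (log2 fold change -0.84 ± 0.47). Trpm5, the cation channel of their taste-like signaling, stood at 9.65, 6.79 and 14.01 CPM and 17.1, 10.7 and 9.85 CPM. Pou2f3, the transcription factor of the lineage, stood at 2.84, 0.402 and 6.12 CPM and 2.02, 0.147 and 3.60 CPM. The ranges of the groups overlap in each of these. Ptgs1, a cyclooxygenase of tuft cells that endothelium also expresses, stood at 67.01, 122 and 91.9 CPM and 31.01, 20.98 and 79.7 CPM (log2 fold change -1.09 ± 0.47). Chat, the enzyme of acetylcholine synthesis, stood at 0.426, 0 and 1.07 CPM in f/f libraries and 0 in ΔIEC libraries, so 1 f/f library was also at 0. Il25, the tuft cell cytokine, did not pass the filter on low counts.

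Among the signals that act on innate lymphoid cells, Il33, an alarmin of stromal and endothelial cells, stood at 12.1, 23.3 and 36.8 CPM in f/f and 8.62, 5.43 and 16.2 CPM in ΔIEC libraries (log2 fold change -1.24 ± 0.55, with a p under 0.05). Il18, an epithelial cytokine, stood at 0.852, 1.61 and 3.88 CPM and 10.5, 18.2 and 3.63 CPM (log2 fold change 2.32 ± 0.84, with a p under 0.05). Library 11 lay inside the f/f range for both. Of 6 alarmin and ILC2-acting genes measured, 4 were higher and 2 lower (median 1.45). A p under 0.05 was reached by 1 in each direction (background 2.36% higher and 2.04% lower). Tslp, another epithelial alarmin, was at or under 2.05 CPM in all 6 libraries.

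In CPM, most genes of the secretory lineages did not separate the groups, and Paneth and goblet cell genes summed highest in f/f library 6. Of 11 Paneth cell genes all 11 had a fold change below 0 (median -1.40), and 0 had a p under 0.05 by edgeR's quasi-likelihood test. Lyz1, the lysozyme of Paneth cells, stood at 11521, 1250.2 and 667 CPM in f/f and 1064, 1102 and 2059 CPM in ΔIEC libraries, and without library 6 the median of the list was 0.66. Mptx2, a pentraxin of Paneth cells, was the one member of 11 below the f/f range in all ΔIEC libraries (background 5.37%). It stood at 345, 63.4 and 64.4 CPM and 41.8, 41.7 and 59.5 CPM. Of 12 goblet cell genes, 3 were higher and 9 lower (median -0.48). With the summed pan-epithelial level as a covariate, the goblet median was -1.16, that of Paneth cell genes -1.41 and that of enteroendocrine genes -0.33. Muc2, the main gel-forming mucin, stood at 4879.6, 544 and 857 CPM and 2358, 2094 and 679 CPM, and Fcgbp, a mucus protein, at 14100.3, 2445 and 3577 CPM and 9170.4, 7325 and 2835 CPM. Per 100 CPM of pan-epithelial genes, goblet genes summed to 313, 163.5 and 148 CPM in f/f and 136, 147 and 125 CPM in ΔIEC libraries, so the ΔIEC values lay under the f/f ones, by the least between libraries 8 and 10. Of 16 enteroendocrine genes 7 were higher and 9 lower (median -0.20), and Chga, chromogranin A of hormone granules, stood at 362, 349.6 and 318 CPM and 146, 164 and 502 CPM, with library 11 the highest of the 6. Of 19 proliferation genes 10 were higher and 9 lower (median 0.01), and Pcna, the clamp of DNA replication, stood at 84.6, 82.8 and 83.8 CPM and 63.9, 98.1 and 85.5 CPM.

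**Figure D5:**
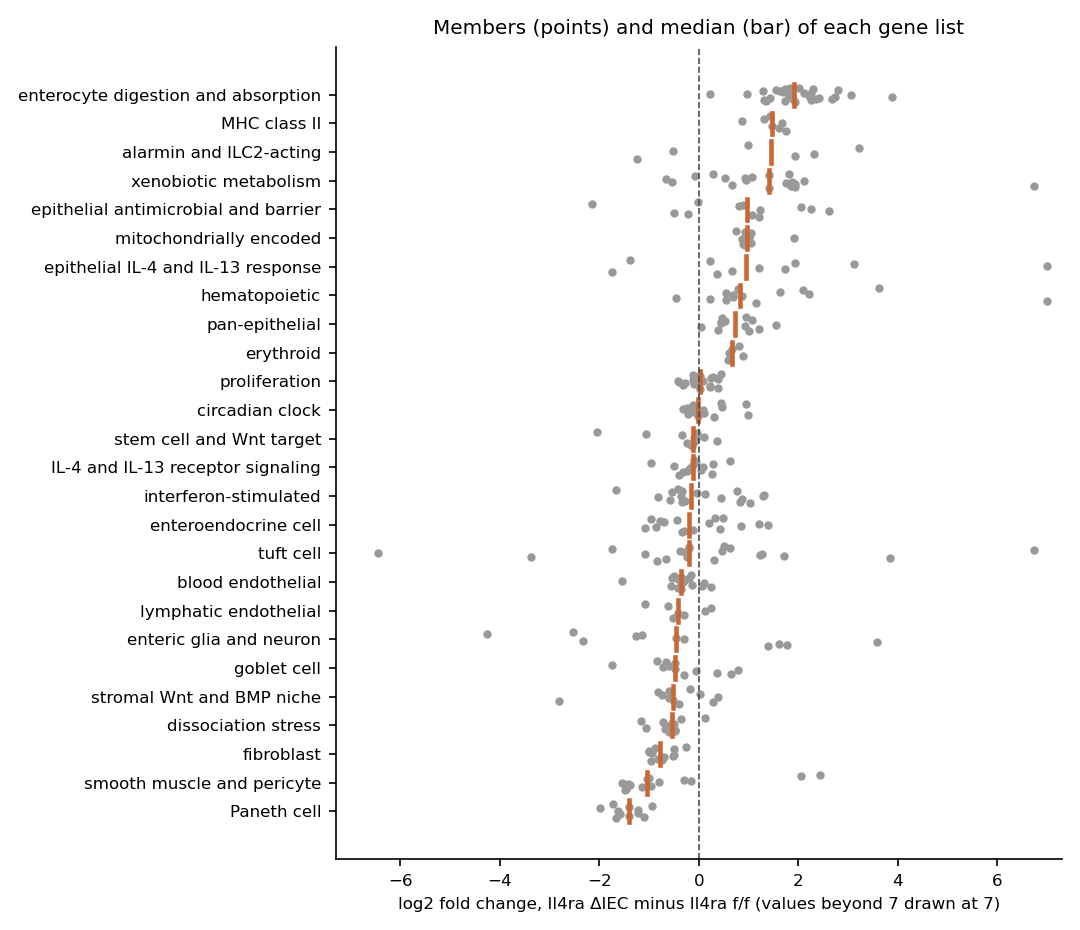
Log2 fold change (ΔIEC minus f/f) of each measured member (points) and the median (bar) of 26 gene lists, with values beyond 7 drawn at 7. Enterocyte genes have the highest median, 1.91, and Paneth cell and smooth muscle genes the lowest, -1.40 and -1.04.

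Defense and metabolism genes of the epithelium followed libraries 9 and 10. Of 12 antimicrobial and barrier genes 8 were higher and 4 lower (median 0.98, and -1.30 without libraries 9 and 10). Nos2, the inducible nitric oxide synthase, stood at 33.2, 15.6 and 31.8 CPM in f/f and 145, 158 and 29.7 CPM in ΔIEC libraries. It was the one member of 12 with a p under 0.05 (background 2.36% higher), although library 11 lay within the f/f range. Reg3b, a lectin that binds bacteria, stood at 665, 188 and 982 CPM and 2084, 1937 and 237 CPM. Of 19 xenobiotic metabolism genes 16 were higher and 3 lower, with a median of 1.41 (1.39 with genes lacking counts in a group at their bound, and -0.09 without libraries 9 and 10). Cyp2c55, a cytochrome P450 of the gut, lay above the f/f range in all ΔIEC libraries, at 15.05, 2.26 and 7.86 CPM and 17.5, 45.3 and 32.3 CPM (log2 fold change 1.93 ± 0.72). All 7 MHC class II genes were higher (median 1.46, and -1.41 without libraries 9 and 10). Ciita, the activator of MHC class II genes, was above the f/f range in all ΔIEC libraries at 2.98, 3.22 and 3.02 CPM and 6.83, 12.8 and 5.29 CPM, while H2-Ab1, a class II chain, was at 280.4, 65.2 and 144 CPM and 725, 717 and 56.3 CPM, library 11 being the lowest.

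CD45 RNA was low in every library of the CD45- sort. Ptprc, the gene of CD45, stood at 2.84, 0 and 0 CPM in f/f and 1.90, 3.81 and 0.279 CPM in ΔIEC libraries. Immunoglobulin RNA remained, and Igha, the heavy chain of IgA made by plasma cells, stood at 2574, 87.7 and 253 CPM and 1285, 791 and 30.5 CPM, high in libraries 6, 9 and 10. Its part in the results was not tested. Over 14 hematopoietic genes the median was 0.83 (-1.67 without libraries 9 and 10), and their summed level ran from 113 to 2973 CPM in f/f and from 45.07 to 1678 CPM in ΔIEC libraries. Hemoglobin and other erythroid genes, 5 of 5 higher with a median of 0.67, were above the f/f range in all 3 ΔIEC libraries for 2 genes (background 3.32%). Of 18 interferon-stimulated genes 8 were higher and 10 lower (median -0.16). Irf7, the regulator of interferon genes, stood at 74.4, 60.2 and 29.5 CPM and 209, 132 and 68.3 CPM (log2 fold change 1.32 ± 0.43, a p under 0.05), with library 11 within the f/f range.

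Blood endothelial genes had overlapping groups throughout. Of 17 blood endothelial genes 3 were higher and 14 lower (median -0.36, and 0.49 without libraries 9 and 10). Pecam1, the adhesion molecule of endothelium, stood at 492, 1482 and 969 CPM in f/f and 502, 422 and 1377 CPM in ΔIEC libraries. Cldn5, a tight junction protein of endothelium, stood at 219, 371 and 421 CPM and 75.00, 34.5 and 238 CPM. It was the one member of 17 with a p under 0.05 (background 2.04% lower). Of 13 genes of the dissociation response 1 was higher and 12 lower (median -0.55), and Fos, an immediate early transcription factor, stood at 1570.5, 3828 and 1245 CPM and 632, 867 and 2881 CPM, high in libraries 7 and 11. Their part in the other results was not tested. The 13 mitochondrially encoded genes were all higher, with a median of 0.97, and -0.37 without libraries 9 and 10. mt-Nd6, a subunit of complex I encoded on the opposite strand to most, was the one member of 13 above the f/f range in all ΔIEC libraries (background 3.32%). It stood at 42.2, 99.2 and 9.67 CPM and 289.8, 144 and 133 CPM. Lymphatic endothelial genes had a median of -0.42, Wnt and BMP niche genes of the stroma -0.52, genes of enteric glia and neurons -0.46 and clock genes -0.01, each with overlapping groups for most members. Mesothelial genes, of which 3 of 5 passed the filter, summed to at most 8.51 CPM in any of the 6 libraries.

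The same deletion was made on a Hoil1-/- background, which allows the difference of the effects to be tested. With edgeR's quasi-likelihood test 0 of 16453 genes passed for the difference between backgrounds (0% called), with 3409 at an unadjusted p under 0.05 (20.7%), while 7 genes (0.0425%) passed for the deletion within Hoil1-/-. The likelihood ratio test called 1223 genes and DESeq2 1466 genes for the difference. Composition differed in the opposite direction there: the ratio of summed pan-epithelial to blood endothelial CPM was 5.29 and 2.45 in Hoil1-/- f/f libraries and 0.208, 0.0812 and 1.02 in Hoil1-/- ΔIEC libraries. With the summed pan-epithelial level as a covariate, 0 genes passed for the difference and 1057 (6.42%) had an unadjusted p under 0.05, in place of 3409. Of 15 smooth muscle and pericyte genes 14 had a p under 0.05 for the difference, and 3 with that covariate. Their median log2 fold change was 1.37 in Hoil1-/- against -1.04 in Hoil1+/+ (0.75 against -0.91 with the covariate). Of 30 enterocyte genes 26 had such a p (13 with the covariate), with medians of -3.27 and 1.91 (-1.13 and 0.34 with it). Of 20 tuft cell genes 13 had such a p (5 with the covariate), with medians of -4.47 and -0.21 (-3.67 and -0.45 with it). Goblet cell genes went the other way, with 1 of 12 at such a p and 5 with the covariate. Their medians were -1.63 and -0.48 (0.18 and -1.16 with it). Trpm5 had a log2 fold change of -4.34 in Hoil1-/- and 0.30 in Hoil1+/+ (adjusted p = 0.0791 for the difference, edgeR's quasi-likelihood test). For Slc10a2 the log2 fold changes were -3.71 and 3.88, and for Acta2 1.45 and -1.49. The values of Trpm5, Slc10a2 and Acta2 are without the covariate, so they include the opposite shifts of composition, and none of these differences passed adjustment. Of 15 measured genes of the receptor pathway 3 had a p under 0.05 for the difference. Il4ra itself had a log2 fold change of 0.44 ± 0.52 in Hoil1-/-, and the adjusted p of the difference was 0.516 with edgeR's quasi-likelihood test.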

How the data were processed

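RNA of live CD45- cells sorted from mouse ileum was sequenced. The authors deposited raw counts of 39056 genes in 24 samples. Per the labels and the study's methods, these were made by trimming with cutadapt, alignment with STAR to mm10 and counting on ENSEMBL genes with featureCounts. Versions and counting options, strand included, are not given in the sources used here, so overlapping and near-identical genes (Mt1 and Mt2, the defensins, the Gsdmc and Sprr2a families, hemoglobins) are uncertain. Names and positions came from GENCODE M21 (GRCm38), which matched 38872 gene identifiers, and promoter windows from RefSeq (GRCm38.p6).

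Tests were made in edgeR 4.0.16 (R 4.3.3) by quasi-likelihood on the counts, scaled with TMM and filtered to 16453 genes (at least 10 counts in enough libraries and 15 in total). The fit held 11 CD45- libraries with a mean for each of 4 genotypes. It left out replicate 23, a Hoil1-/- f/f library that the study's sample list omits. Contrasts were ΔIEC minus f/f in Hoil1+/+ and its difference from the same contrast in Hoil1-/-, two-sided, and p-values were adjusted over all genes (Benjamini-Hochberg) and called under 0.05. CPM are counts per 1000000 of the TMM-scaled library size. They are not divided by gene length, so levels are compared between samples and not between genes. Each SE is the absolute log2 fold change divided by the square root of the test's F value. A group with 0 counts was set to a floor of 3 counts over its pooled libraries when a fold is given as a bound. Root mean square differences used genes with a mean of at least 1 CPM. DESeq2 1.42.0, the likelihood ratio test and exact test of edgeR, other scalings, filters, covariates and sets of libraries were alternatives. The members and the 28 gene lists were chosen with earlier results of these data known. Named were a fixed set of checks, the 12 genes per direction with the smallest p among those whose groups did not overlap and with at least 1 CPM in the higher group, and, for each list, its 4 members with the highest CPM and any with a p under 0.05. Some of the genes this rule names are not reported here, and Mt2 and a few list members were added after their values were seen.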

Additional observations from a re-analysis of the deposited data

How the results depend on the processing

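For ΔIEC against f/f in Hoil1+/+ CD45- cells, edgeR's quasi-likelihood test called 0 genes, the likelihood ratio test 2 and DESeq2 17. Every other alternative called 0: all 12 CD45- libraries, the 6 Hoil1+/+ libraries alone, edgeR's exact test, RLE scaling, no filter, Xist, age or pan-epithelial level as a covariate, and, both chosen after seeing the data, leaving out libraries 9 and 10 or libraries 6, 9 and 10. Leaving out each library in turn gave 0 to 0 calls, with 298 to 2189 genes at an unadjusted p under 0.05, the most without replicate 11. For the difference between Hoil1 backgrounds, the count rose from 0 to 1223 with the likelihood ratio test, 1466 with DESeq2, 1 with no filter and 5 when age was a covariate. Dropping each of the 11 libraries in turn, the 5 Hoil1-/- ones as an alternative chosen after seeing the data, gave 0 to 1199 calls, with 1199 without replicate 11, 723 without replicate 2 (which leaves a single Hoil1-/- f/f library, assumed to vary like the other groups) and 1 without replicate 7. The cause was not tested. The difference could not be fitted with the 6 Hoil1+/+ libraries alone or with the exact test. Of 157 named genes, 70 kept the sign of their fold change under every alternative. For genes named because their groups did not overlap, the sign without libraries 9 and 10 was largely fixed by that choice. The medians of the smooth muscle and pericyte, dissociation stress, alarmin and erythroid lists kept their sign under all 18 alternatives, while that of the enterocyte list turned to -0.65 without libraries 9 and 10. The kept sign hides wide shifts for some lists. The dissociation stress median went from -0.55 to -0.04 without libraries 9 and 10. The alarmin median went from 1.45 to 0.05 without libraries 6, 9 and 10. No paired analysis was possible because the groups share no replicate numbers in the labels. The common dispersion was 0.558 with 3 libraries a group, and levels under 3 counts, 0.0398 to 0.44 CPM depending on the library, were not detectable. The floors cover counting error only.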
